A study of Mus musculus with 4 samples.

Results

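Immediate early genes are the genes that cells transcribe first after a stimulus, and 10 of them were followed here in the newborn mouse lens with and without Hsf4, the gene of heat shock transcription factor 4. The members were chosen by name: Fos, Fosb, Jun, Junb, Egr1, Ier2, Atf3, Dusp1, Zfp36 and Btg2. All probe sets that the platform annotation names for exactly 1 of them were taken, which gave 12 of the 45101 probe sets on the array. Jun and Btg2 had 2 probe sets each and the others 1. Of the 12, 11 probe sets of 9 genes were bright enough to be tested, and the probe set of Fosb was not.

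The Hsf4 knockout samples and the wild-type samples were whole lenses of mice at postnatal day 0.5, on the 129S3 background, with 2 arrays per group numbered 1 and 2. The labels call all animals male and give neither the knockout allele nor the number of lenses or animals behind a sample, so the p-values below measure the spread between these samples, which may be technical. Per the labels' protocols, dissected lenses stood in a stabilising solution for RNA before freezing, and no sample with a timed stimulus or a timed delay is among the 4.

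Immediate early genes need no newly made protein to be switched on. Kinase cascades below growth factor receptors and stress sensors modify factors that already sit on the DNA, such as serum response factor with its ternary complex partners and the CREB and ATF proteins that bind cyclic AMP response elements, and the transcripts appear within minutes and decay soon after. Fos, Fosb, Jun and Junb encode subunits of the transcription factor AP-1, while Dusp1, Zfp36 and Btg2 encode proteins that restrain the response. In the lens these genes are known as a response of epithelial cells to growth factors, and in many tissues they are also known to be induced while tissue is being dissected.

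Several values of the whole series bear on what follows. The deposited median intensity was 18.5 and 6.58 on knockout arrays 1 and 2, against 21.4 and 10.5 on wild-type arrays 1 and 2, and the arrays were therefore brought to 1 distribution by quantile normalization. All intensities below are on that scale unless called deposited. The 3' to 5' ratio of the Gapdh control was 0.902 and 1.05 on knockout arrays 1 and 2 and 0.862 and 0.856 on wild-type arrays 1 and 2, and the actin control had 1.53 and 1.89 on the knockout arrays against 1.67 and 1.51 in wild type, both ratios being highest on knockout array 2. The Hsf4 probe set measured 1212 and 413 on the arrays labelled knockout, against 505 and 138 on those labelled wild type, so this gene did not check the labels. The labels do not place the probe set relative to the deleted stretch. The brightest Xist probe set measured 260 and 9.01 on knockout arrays 1 and 2 and 605 and 58.0 on wild-type arrays 1 and 2, so this transcript of the inactive X chromosome was bright on the arrays numbered 1, although the labels call all animals male. The Y-linked gene Eif2s3y measured 101 and 161 on the knockout arrays and 60.4 and 208 on the wild-type arrays, and the Y-linked gene Kdm5d 41.6 and 43.2 on the knockout arrays and 22.2 and 54.1 on the wild-type arrays, so Y-linked transcripts were measured on the arrays numbered 1 as well. Every direction below refers to the arrays as labelled, and the changes of the tested members are also given within number 1 and within number 2.

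None of the 11 tested probe sets of immediate early genes differed between the Hsf4 knockout and wild-type arrays in limma, where every adjusted p was 1. Over all 22519 probe sets tested, 0.0178% passed, so a count of 0 among the members is what the background gives. At an unadjusted p under 0.05 the members also gave 0, against 2.33% of all probe sets. Fos, Junb and Egr1 had the lowest log2 changes, between -0.57 and -0.56, and Dusp1 and Zfp36 had the highest at 0.38 and 0.32. All log2 changes subtract wild type from knockout after log2(intensity + 16), a scale that understates the change of dim probe sets. Because the samples were whole lenses, fewer cells of a type and less RNA per cell cannot be told apart.

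**Figure D1:**
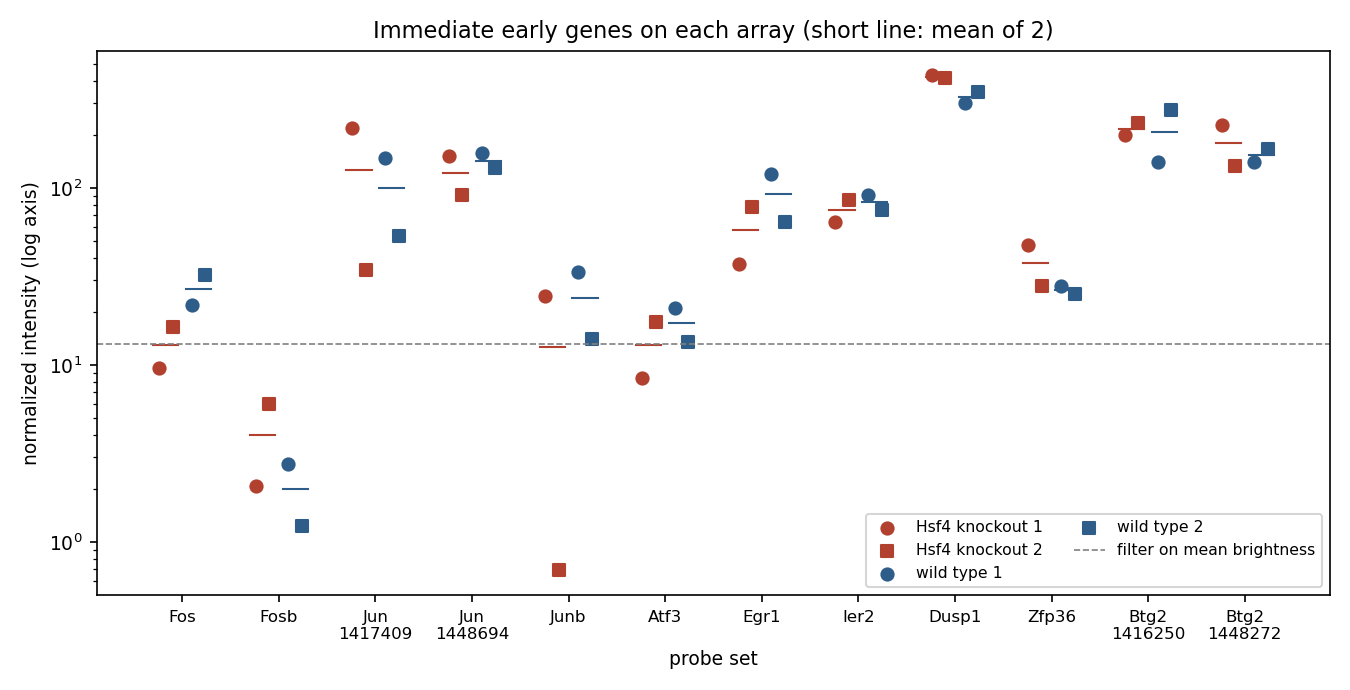
Normalized intensity on a log axis of the 12 probe sets of the 10 immediate early genes, with Hsf4 knockout arrays in red and wild-type arrays in blue, circles for number 1, squares for number 2 and a short line for the mean of each group of 2. The groups do not overlap for Fos, Dusp1 and Zfp36, and Fosb lies below the filter on all 4 arrays.

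The 250 bases just upstream of the start site are shown for the 3 members whose groups did not overlap. Elements that early response factors read can lie there, and elements further upstream are not covered. The sequences are RefSeq's, of build GRCm38.p6, written 5′ to 3′ and ending at the last base before the start site. Capitals mark TGACG on either strand, which is the shared core of cyclic AMP response elements (TGACGTCA in full), and the CArG box, the element of serum response factor.
Fos, upstream of the start site, chr12:85473640-85473889, plus strand: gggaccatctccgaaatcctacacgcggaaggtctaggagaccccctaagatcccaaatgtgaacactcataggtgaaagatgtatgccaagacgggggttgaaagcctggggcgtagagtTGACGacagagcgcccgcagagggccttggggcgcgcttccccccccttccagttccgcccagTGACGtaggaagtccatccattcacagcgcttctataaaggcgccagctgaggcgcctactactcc
Dusp1, upstream of the start site, chr17:26508473-26508722, minus strand: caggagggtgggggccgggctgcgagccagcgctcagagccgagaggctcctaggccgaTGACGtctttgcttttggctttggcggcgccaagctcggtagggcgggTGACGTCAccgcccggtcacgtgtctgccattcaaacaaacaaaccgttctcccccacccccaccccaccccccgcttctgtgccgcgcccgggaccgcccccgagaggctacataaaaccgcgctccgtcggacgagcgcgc
Zfp36, upstream of the start site, chr7:28379229-28379478, minus strand: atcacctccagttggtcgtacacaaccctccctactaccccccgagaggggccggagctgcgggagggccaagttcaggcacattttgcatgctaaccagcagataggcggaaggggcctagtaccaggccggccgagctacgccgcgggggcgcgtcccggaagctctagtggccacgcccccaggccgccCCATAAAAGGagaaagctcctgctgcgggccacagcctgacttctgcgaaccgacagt

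In Fos the core TGACG stood at 129 to 125 and at 66 to 62 bases before the start, and a TATA box (TATAAA, found in 12.4% of all 32851 promoter windows of this length) at 33 to 28. Dusp1 held the full element TGACGTCA at 143 to 136 bases before the start and another TGACG at 191 to 187. Zfp36 held no TGACG but a CArG box at 58 to 49, an element found in 1.47% of all windows. The same windows were matched for 8 of the 10 members, all but Egr1 and Ier2. TGACG, which overlaps the full element wherever that occurs, was found in 6 of the 8 (Atf3, Btg2, Dusp1, Fos, Fosb and Junb) and in 17.8% of all windows. The full TGACGTCA was found in 2 of the 8 (Btg2 and Dusp1) and in 1.55% of all windows. As letters that heat shock factors are known to bind, GAANNTTC was found in 1 of the 8 (Jun) and in 6.69% of all windows, and TTCNNGAA in 0 of the 8 and in 7.17% of all. The AP-1 element TGACTCA and the Egr element GCGTGGGCG were found in 0 of the 8, and in 4.46% and 0.536% of all windows, and the core of ternary complex factors, CCGGAA, in 1 of the 8 (Zfp36) and in 12.0% of all. A match is a description of these letters on both strands and not a site. The log2 changes of the tested members with TGACG were -0.57 (Fos), -0.56 (Junb), -0.21 (Atf3), 0.38 (Dusp1), and 0.12 and 0.16 (Btg2). For the members without it they were -0.24 and 0.04 (Jun) and 0.32 (Zfp36). A link between these letters and the direction was not tested.

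Fos, the partner of Jun in the classical AP-1 dimer, was dim in these lenses. It measured 9.64 and 16.3 on the knockout arrays, against 21.8 and 32.1 on the wild-type arrays. Both knockout values lay below both wild-type values. The group means were 13.0 ± 4.74 in knockout and 27.0 ± 7.29 in wild type (SD, n = 2 each), a ratio of 0.482. The log2 change was -0.57 (SE 0.33, 95% interval -1.32 to 0.18) and the adjusted limma p was 1. By p it ranked 1507 among the 22519 probe sets. Arrays of number 1 gave -0.56 and arrays of number 2 gave -0.57, nearly the same difference, and the change was -1.02 with an offset of 1 in place of 16. The knockout mean stood just under the filter intensity of 13.0, so Fos passed the filter through its wild-type values, and its direction is no support for a difference.

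Fosb, a close relative of Fos, measured 2.06 and 5.98 on the knockout arrays, against 2.75 and 1.23 on the wild-type arrays. These groups overlapped, and all 4 values were below the filter. Its level was therefore described and not tested.

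Jun, the AP-1 subunit that can also pair with itself, was measured by 2 probe sets, both lowest on knockout array 2 and next lowest on wild-type array 2. The one with the higher mean, 1448694_at, measured 152 and 90.7 on the knockout arrays, against 156 and 129 on the wild-type arrays, with a log2 change of -0.24 (SE 0.34, 95% interval -0.996 to 0.52). The other, 1417409_at, measured 219 and 34.4 on the knockout arrays, against 147 and 53.2 on the wild-type arrays, with a log2 change of 0.04 (SE 0.66, 95% interval -1.44 to 1.51). The groups overlapped for both. The changes were 0.53 within number 1 and -0.46 within number 2 for 1417409_at, and -0.04 and -0.44 for 1448694_at, so the directions differed within number 1 and were the same within number 2. For 1417409_at, array 2 lay 2.22 below array 1 in knockout on the log2 scale and 1.24 below it in wild type (differences of -2.22 and -1.24). For 1448694_at the same differences were -0.65 and -0.25. The spread between arrays of 1 group was thus larger than the difference between groups for both probe sets. For 1448694_at in wild type it was so only narrowly (-0.25 against -0.24).

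Junb, an AP-1 subunit that can damp the activity of Jun, also followed the array number. It measured 24.6 and 0.691 on the knockout arrays, against 33.5 and 13.9 on the wild-type arrays. Knockout array 2, which had the highest 3' to 5' control ratios, gave the lowest value, and the part of RNA quality in it was not tested. The log2 change was -0.56 (SE 0.47, 95% interval -1.61 to 0.48), with -0.29 within number 1 and -0.84 within number 2, and it was 0.08 without knockout array 2. With knockout array 1 left out instead it was -1.21, a change that rests on the knockout value of 0.691 alone, far below the filter intensity of 13.0. Together, 4 of the 11 member probe sets were lower on array 2 than on array 1 in both groups (both of Jun, Junb and Zfp36), where 31.8% of all probe sets tested were.

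Egr1, a zinc finger transcription factor that binds GC-rich promoters, had the largest difference within 1 array number of all the members. It measured 37.3 and 78.2 on the knockout arrays, against 119 and 64.5 on the wild-type arrays. Knockout array 1 was the lowest and wild-type array 1 the highest of the 4, with both arrays of number 2 between them. The log2 change was -0.56 (SE 0.39, 95% interval -1.44 to 0.32), but it was -1.34 within number 1 and 0.23 within number 2. Without wild-type array 1 the change was -0.18, and without knockout array 1 it was -0.15.

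Ier2, a small nuclear protein named for its early response, showed the same order of arrays with a smaller spread. It measured 63.8 and 85.3 on the knockout arrays, against 90.8 and 75.0 on the wild-type arrays, with a log2 change of -0.13 (SE 0.31, 95% interval -0.83 to 0.57). Atf3, a stress-induced member of the ATF family that also dimerises with Jun proteins, measured 8.45 and 17.6 on the knockout arrays, against 21.0 and 13.5 on the wild-type arrays. Its log2 change was -0.21 (SE 0.35, 95% interval -0.98 to 0.57). Within number 1 the changes were -0.42 for Ier2 and -0.60 for Atf3. Within number 2 they were 0.16 and 0.19, so both genes, like Egr1, turned direction between the numbers.

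The order of the 4 arrays in Egr1, Ier2 and Atf3, from knockout 1 at the bottom over wild type 2 and knockout 2 to wild type 1 at the top, was looked at after the values were seen. It held for 3 of the 11 member probe sets and for 1.39% of all probe sets tested. In the 4 wider lists of immediate early genes described below it held for 3 of 101 tested probe sets, which belonged to Klf6, Ccn2 and Cxcl1. Ccn2, a secreted matrix protein, measured 66.6 and 196 on the knockout arrays, against 201 and 104 on the wild-type arrays. No test was made of this shared order, which rests on quantile normalization. On the normalized scale Jun (1448694_at) and Junb shared a different order, with knockout 2 lowest and wild type 1 highest, which 8.28% of all probe sets tested also had. In the deposited values Egr1, Ier2 and Atf3 had that order as well. Deposited Egr1, for example, was 51.3 and 24.9 on the knockout arrays, against 187 and 43.8 on the wild-type arrays.

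**Figure D2:**
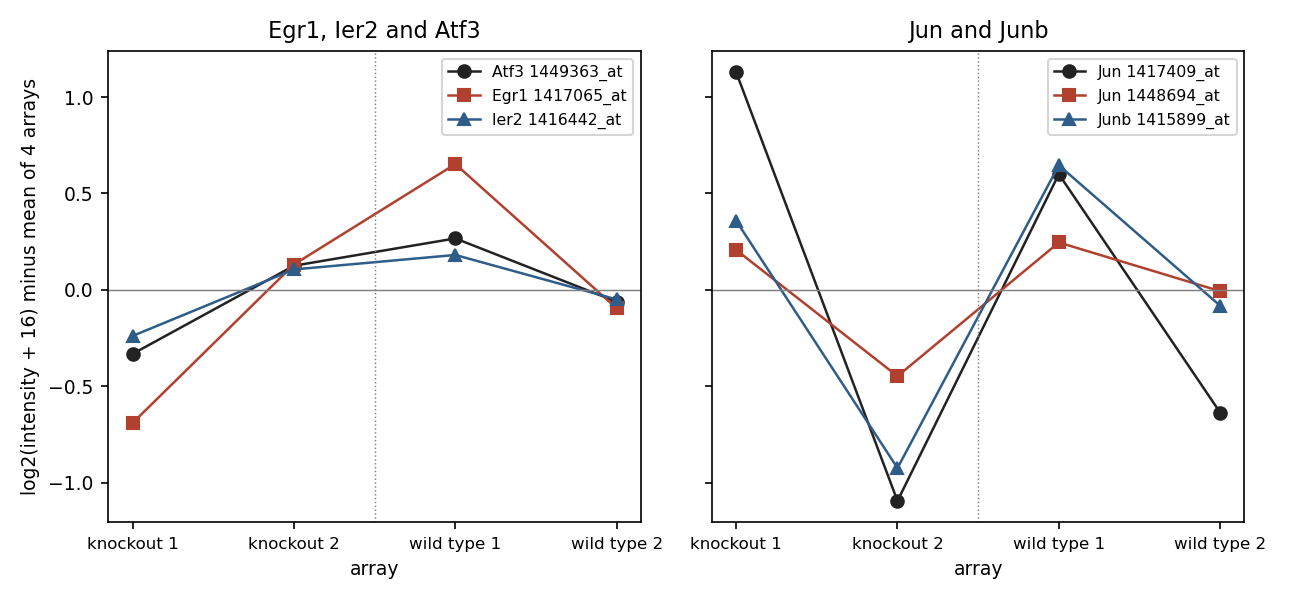
Deviation of log2(intensity + 16) from the mean of the 4 arrays for Egr1, Ier2 and Atf3 (left) and for the probe sets of Jun and Junb (right), by array, where lines only join the points of 1 probe set. Egr1, Ier2 and Atf3 were lowest on knockout array 1 and highest on wild-type array 1, while Jun and Junb were lowest on knockout array 2.

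Dusp1, the phosphatase that switches off MAP kinases in the nucleus, was the steadiest member within the knockout group. It measured 432 and 420 on the knockout arrays, against 299.8 and 348 on the wild-type arrays. Both knockout values lay above both wild-type values, with means of 426 ± 8.42 in knockout and 324 ± 34.4 in wild type (SD, n = 2 each). The log2 change was 0.38 (SE 0.28, 95% interval -0.25 to 1.01), with 0.50 within number 1 and 0.26 within number 2. With values as deposited it was -0.23 and with median centring -0.06, settings in which the median over all probe sets tested was -0.42 and -0.25, so relative to that median Dusp1 was 0.20 higher in both.

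Zfp36, which binds AU-rich elements and speeds the decay of early response transcripts, measured 47.7 and 27.955 on the knockout arrays, against 27.954 and 25.0 on the wild-type arrays. The groups did not overlap only by a difference in the third decimal between knockout array 2 and wild-type array 1. The log2 change was 0.32 (SE 0.33, 95% interval -0.42 to 1.06), with 0.54 within number 1 and 0.10 within number 2. It was 0.05 without knockout array 1.

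Btg2, an antiproliferative partner of the enzymes that shorten poly(A) tails, had a pair of probe sets with overlapping groups. Probe set 1416250_at measured 199 and 233 on the knockout arrays, against 140 and 274 on the wild-type arrays. Probe set 1448272_at measured 225 and 133 on the knockout arrays, against 141 and 167 on the wild-type arrays. The log2 changes were 0.12 (SE 0.36, 95% interval -0.68 to 0.93) and 0.16 (SE 0.34, 95% interval -0.60 to 0.92). Within number 1 they were 0.47 and 0.62 and within number 2 they were -0.22 and -0.30, so the probe sets gave the same directions within each number while those directions opposed each other. The probe sets differed in the order of the arrays within the knockout group.

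The members thus did not move as 1 group. The median log2 change over the 11 tested probe sets was -0.13, against -0.01 over all probe sets tested, with -0.04 from number 1 alone and -0.22 from number 2 alone. Lower values within both numbers were found for 3 member probe sets (Fos, Junb and Jun 1448694_at), where 27.4% of all probe sets had them, and higher values within both for 2 (Dusp1 and Zfp36), where 25.9% had them. Opposite directions within the numbers were found for 6, where 46.8% of all probe sets had them. Groups did not overlap with knockout lower for 1 (14.4% of all probe sets) and with knockout higher for 2 (12.6% of all probe sets). These counts are close to what the background shares give for 11 probe sets. By role, the 5 tested probe sets of Fos, Jun, Junb and Atf3 had a median log2 change of -0.24, with -0.29 within number 1 and -0.46 within number 2. The 2 of Egr1 and Ier2 had -0.34, with -0.88 within number 1 and 0.19 within number 2. The 4 of Dusp1, Zfp36 and Btg2 had 0.24, with 0.52 within number 1 and -0.06 within number 2. A direction shared by both numbers was thus given only by the first of these 3 medians. Fos, Junb and Atf3 lay close to the filter, each with a knockout mean at or below 13.0 (13.0, 12.6 and 13.0) and a wild-type mean above it (27.0, 23.7 and 17.3), which tilts a median over the tested members towards lower values. The 95% interval reached below a log2 change of -1 for 4 of the 11 (Fos, Junb, Egr1 and Jun 1417409_at) and above 1 for 3 (Dusp1, Zfp36 and Jun 1417409_at), so the fit could not tell changes of that size from 0 in these probe sets.

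**Figure D3:**
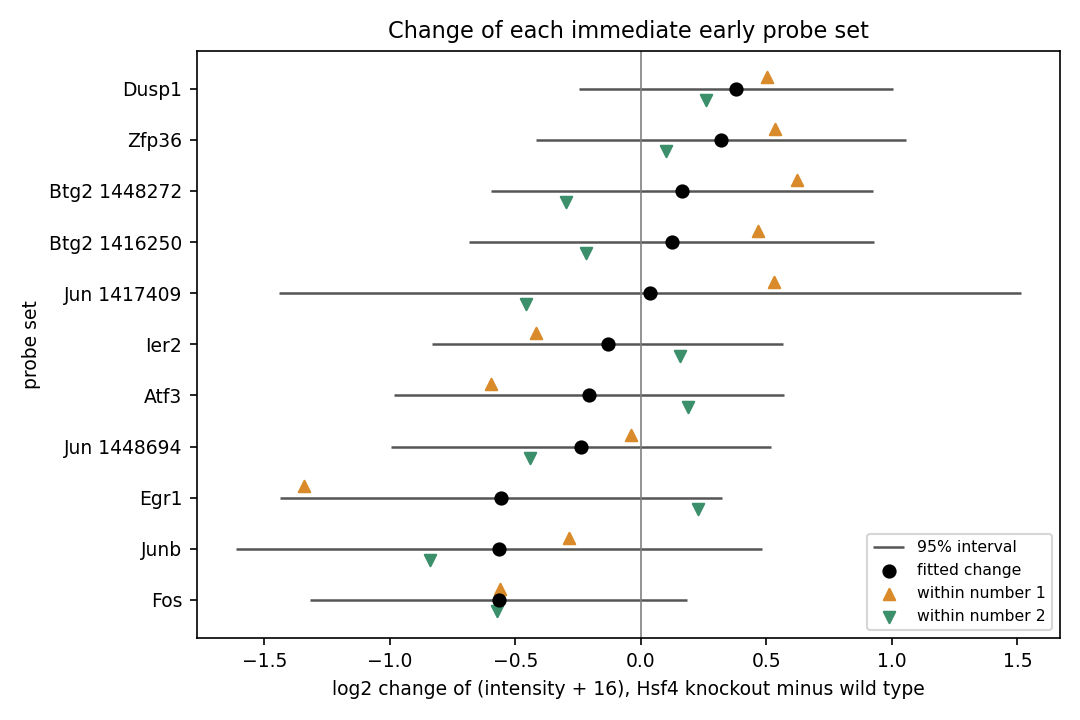
Log2 change of (intensity + 16), Hsf4 knockout minus wild type, for the 11 tested probe sets, with the fitted change as a black point, its 95% interval as a line and the changes within number 1 and number 2 as triangles. Every interval spans 0, and only Fos, with -0.56 and -0.57, gave nearly the same value within both numbers.

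Beyond the members, 4 wider lists of immediate early genes were followed: other AP-1 and Maf family genes, other early nuclear factors, other early regulators and early secreted proteins. They named 76 genes, of which 72 had a probe set and 57 were tested by 101 probe sets. None of the 101 passed in limma (lowest adjusted p = 1). At an unadjusted p under 0.05 there were 3, a count near the share of 2.33% over all probe sets tested. Probe sets of Nr4a2, Zfp36l2, Trib1 and Plk3 depended on which knockout array was left out. Nr4a2 1455034_at measured 19.0 and 0.438 on the knockout arrays, against 18.8 and 27.2 on the wild-type arrays (log2 change -0.69). The other tested probe sets of Nr4a2 had log2 changes of 0.05, 0.44 and 0.34. Zfp36l2 and Trib1 also had their lowest value on knockout array 2, at 131 and 23.9. Plk3 measured 74.2 and 13.7 on the knockout arrays, against 33.7 and 1.53 on the wild-type arrays. The median log2 change of the 101 was -0.00, with a range from -1.01 to 0.81. Lower values within both numbers were found for 28 and higher for 23 of the 101, near the shares of 27.4% and 25.9% over all probe sets.

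The 3 with an unadjusted limma p under 0.05 were probe sets of Edn1, Ccn1 and Gadd45g. Edn1, the precursor of the vasoconstrictor endothelin, measured 11.1 and 4.17 on the knockout arrays, against 31.3 and 29.1 on the wild-type arrays (log2 change -0.98, SE 0.33). Ccn1, a secreted matrix protein that serum induces, measured 15.3 and 11.2 on the knockout arrays, against 56.2 and 31.6 on the wild-type arrays (log2 change -1.01, SE 0.34). The other 3 probe sets of Ccn1 were below the filter. Gadd45g, a growth arrest and stress protein, measured 232 and 271 on the knockout arrays, against 136 and 144 on the wild-type arrays (log2 change 0.78, SE 0.30). In each of the 3 the groups did not overlap. Edn1, with a knockout mean of 7.62 under the filter, passed it through its wild-type values. The knockout mean of Ccn1, 13.3, lay just above the filter intensity of 13.0.

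Among the remaining AP-1 relatives, Jdp2, a repressor that dimerises with Jun proteins, measured 24.1 and 16.3 on the knockout arrays, against 46.2 and 36.4 on the wild-type arrays (log2 change -0.67, SE 0.32). The brightest probe set of Jund, the AP-1 subunit that is made without a stimulus in many cells, measured 1281 and 340 on the knockout arrays, against 1389 and 400 on the wild-type arrays, and so followed the array number as Junb did. Fosl1 and Fosl2 were below the filter in all their probe sets. Of the other nuclear factors, Egr2, Egr3, Egr4, Nr4a3, Npas4, Arc and Csrnp1 were below the filter, while Klf10, a target of transforming growth factor beta, measured 55.1 and 57.9 on the knockout arrays, against 104 and 79.6 on the wild-type arrays (log2 change -0.56, SE 0.31).

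The genes upstream and downstream of the early response gave no call in the fit to all 4 arrays without a block for the array number. In the list of upstream kinases and factors, 0 of 30 tested probe sets passed, with a median log2 change of -0.09. An unadjusted limma p under 0.05 was found for 2, against 2.33% of all probe sets. These were probe sets of Mapk8, the stress kinase JNK1, at 16.0 and 28.4 on the knockout arrays against 90.8 and 65.2 on the wild-type arrays (log2 change -1.31), and of Mapk14, the stress kinase p38 alpha, at 39.3 and 22.4 on the knockout arrays against 55.2 and 66.6 on the wild-type arrays (log2 change -0.73). The other 4 tested probe sets of Mapk8 had log2 changes from -0.25 to -0.01, and the brighter probe set of Mapk14 had -0.01, so the probe sets of both genes disagreed. Whether the Mapk8 probe set at -1.31, 1457936_at, or a probe set of Atf2 passed depended on which knockout array was left out. Such fits rest on 1 knockout array. Far more of all probe sets tested passed in them than in the main fit, so these calls say little about the genes. In the list of fibroblast growth factor receptors and MAP kinase feedback genes, 0 of 26 passed, with a median of -0.07. Whether a probe set of Etv5 passed likewise depended on which knockout array was left out.

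Of the heat-induced chaperones, 0 of 19 tested probe sets passed, with a median log2 change of -0.31. At an unadjusted p under 0.05 there were 3, against 2.33% of all probe sets. Lower values within both numbers were found for 13 of the 19, against 27.4% of all, and groups that did not overlap with knockout lower for 6, against 14.4% of all. The 3 were the probe set 1416755_at of Dnajb1, a co-chaperone of Hsp70, and both tested probe sets of Hspb1, a small heat shock protein. Hspb1 (1422943_a_at) measured 75.3 and 124 on the knockout arrays, against 354 and 147 on the wild-type arrays (log2 change -1.12), with the highest value on wild-type array 1. Whether the other Hspb1 probe set passed depended on which knockout array was left out.

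Markers of other tissue differed beside these genes. Of all probe sets tested, 27.4% were lower within both numbers, 25.9% were higher within both and 46.8% had opposite directions. Muscle markers were lower on the knockout arrays within both numbers for 12 of 13 tested probe sets, 2 of which passed in limma. Their summed intensities were 170 and 184 on the knockout arrays, against 2909 and 1508 on the wild-type arrays. The filter takes the mean over all 4 arrays. Muscle probe sets that were dim on the knockout arrays could pass it through their wild-type values, which tilts the count of 12 towards lower. Fibroblast and pericyte markers were lower within both numbers for 14 of 18, of which 0 passed. Their sums were 2464 and 2678 on the knockout arrays, against 3223 and 3861 on the wild-type arrays. Their log2 changes ran from -1.84 to 1.50. Groups did not overlap with knockout lower for 11 (14.4% of all probe sets) and with knockout higher for 1 (12.6% of all). Neural retina markers were lower within both numbers for 10 of 17, with a median of -0.38 and sums of 3050 and 1989 on the knockout arrays, against 3306 and 3552 on the wild-type arrays. Of these, 0 passed. Endothelial markers had opposite directions within the numbers for 8 of 10, with a median of -0.26 within number 1 and 0.65 within number 2, and sums of 654 and 952 on the knockout arrays, against 818 and 635 on the wild-type arrays. Erythroid markers were higher within both numbers for 4 of 6, of which 0 passed. Their sums were 179 and 584 on the knockout arrays, against 130 and 181 on the wild-type arrays. Macrophage markers had sums of 627 and 697 on the knockout arrays and 592 and 640 on the wild-type arrays. No marker is listed at 0 on any array, and the part of these tissues in the values of the immediate early genes was not tested. The lens fibre markers, which define the labelled tissue, had sums of 60827 and 59003 on the knockout arrays, against 62288 and 58697 on the wild-type arrays. Of 12 tested probe sets 0 passed, but their log2 changes ran from -1.06 to 1.00, so near-equal sums do not mean that each marker was unchanged. Probe sets of Bfsp1 and Bfsp2 passed on leaving out either knockout array. More muscle, fibroblast, retina and erythroid probe sets also passed in at least 1 of these fits. So did far more of all probe sets tested, and such fits rest on 1 knockout array. The lens epithelium markers had sums of 6471 and 5886 on the knockout arrays, against 7056 and 5858 on the wild-type arrays, with a median log2 change of -0.03.

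**Figure D4:**
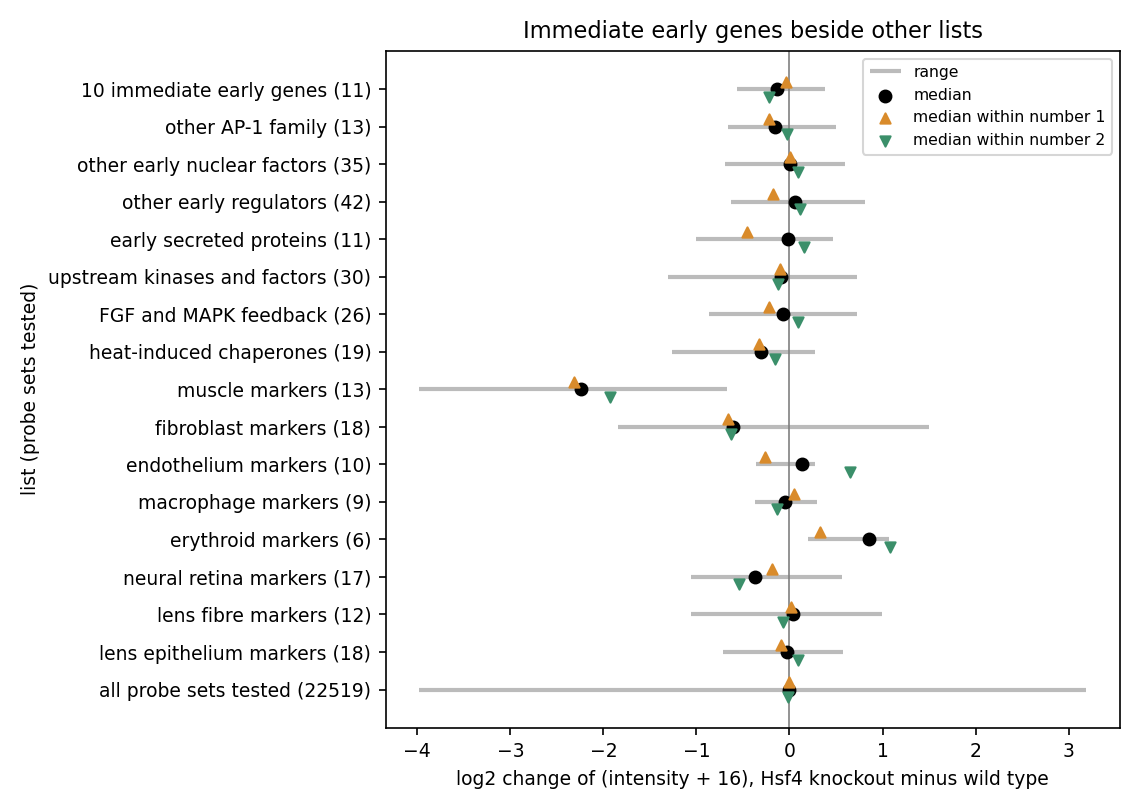
Median log2 change (Hsf4 knockout minus wild type, black point) with the range over the tested probe sets (grey line) and the medians within number 1 and number 2 (triangles), for the 10 immediate early genes and the other lists. The immediate early genes, with a median of -0.13, lie near all probe sets tested at -0.01, while the muscle markers have a median of -2.24.

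The mean profile of the members over the 4 arrays was close to flat. Centred on the mean of the 4 arrays, the 9 brightest probe sets averaged -0.06 and -0.10 on the knockout arrays and 0.13 and 0.03 on the wild-type arrays in log2 units. The 3 genes outside the lists nearest to that profile were Tspyl2, Itsn2 and Shisa5, with root mean square differences of 0.010, 0.012 and 0.016 in log2 units over 4 arrays among 11433 genes. Their log2 changes were -0.17, -0.16 and -0.19. No single member had so flat a profile, since the members' deviations cancelled in the mean.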

How the data were processed

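RNA of 4 samples was measured on 1-colour Affymetrix arrays, 2 Hsf4 knockout and 2 wild type. The authors deposited linear intensities with a single value for each probe set on each array. How probes were summarised and background was corrected is not stated in the labels, the values were not normalized between arrays, and no detection call is at hand. The number of arrays limits the precision.

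The 45101 intensities per array were quantile normalized (limma 3.58.1, R 4.3.3), the 64 control probe sets left out, an offset of 16 added and log2 taken. The platform annotation pairs 34945 of the remaining probe sets with 1 symbol, 932 with several and 9160 with none. The 22519 probe sets whose mean log2 value reached the median of 4.86 (intensity 13.0) were fitted with limma's moderated test with a variance trend, and p-values were adjusted by Benjamini-Hochberg over all of them at a threshold of 0.05. The fit was tested on simulated data with independent noise on each array. That test does not cover deviations shared by arrays of the same number. Alternatives were other scalings, filters and offsets, 1 probe set per gene, a block for the array number and leaving out each array. Separate changes for number 1 and number 2 were an addition made once the data had been seen.

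The members, lists, motifs and tests were chosen with earlier results of these data known. All members are named. From the other lists the rule takes up to 3 genes with the lowest p, and the genes nearest to the members' mean profile. Ccn2, Klf6, Cxcl1, Jund, the genes below the filter, Atf2, Etv5, Nr4a2, Zfp36l2, Trib1, Plk3, Btg1, Bfsp1, Bfsp2, Hsf4 as a check, Xist, Eif2s3y and Kdm5d are named outside that part of the rule or after their values were seen.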

Additional observations from a re-analysis of the deposited data

How the results depend on the processing

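No member probe set passed the threshold under any alternative run. At an unadjusted p under 0.05 the members gave 0 in the fit to all 4 arrays. Jun and Junb came under it without knockout array 1, and Fos, Jun and Egr1 without knockout array 2. The log2 change of Jun 1417409_at was -1.08 in the first of these fits and 1.15 in the second, so its direction reversed. In both fits the lone array of a group is assumed to vary like the other group. The number of all probe sets that passed was 4, and it was 0 with values as deposited and with no filter, 15 with median centring, 317 with the array number as a block (121 higher and 196 lower), and from 4 to 566 on leaving out 1 array (566 without knockout array 1 and 92 without knockout array 2). The median log2 change of the tested members, -0.13, was -0.50 with values as deposited and -0.33 with median centring, where the median over all probe sets was -0.42 and -0.25. It turned to 0.035 with the filter at the 70th percentile, which kept 7 member probe sets, and ranged from -0.37 to 0.076 on leaving out 1 array (0.076 without knockout array 2). In the fit with the block, the lowest unadjusted p of a member was that of Egr1, 0.0437 (adjusted 0.534), and the deviations of same-numbered arrays from their group means correlated at 0.43 over all probe sets, a hint from the data since the labels do not say that a number marks a litter or day. The block changed no member's call. The fit with the block had 22519 total degrees of freedom, against 9.39 in the main fit. It thus took the variance of each probe set almost wholly from the trend, and its calls rest on that. In other lists the block added calls, where 317 of all 22519 probe sets passed. Those lists gave 1 of 101 in the wider immediate early lists (Btg1 1437455_a_at, adjusted p = 0.0246 in limma) and 1 of 30 in the upstream list (Mapk8, 0.00259). The brightest Btg1 probe set, 1426083_a_at, had a log2 change of -0.005 and 1442018_at had 0.05, so the probe sets of Btg1 disagreed. With the block, 3 of 19 chaperone probe sets (Dnajb1 and Hspb1), 11 of 13 muscle and 9 of 18 fibroblast probe sets passed. So did 4 of 17 retina, 1 of 6 erythroid and 2 of 12 lens fibre probe sets (Bfsp1 and Bfsp2).

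Directions turned with values as deposited for Jun 1417409_at (-0.26), Dusp1 (-0.23), Btg2 1416250_at (-0.47) and Btg2 1448272_at (-0.38), and with median centring for the same 4 (-0.083, -0.055, -0.29 and -0.21). Relative to the median of all probe sets, only Btg2 1416250_at stayed below 0 in both (-0.04). Jun 1417409_at was -0.021 with offset 1. On leaving out 1 array, the changes ranged from -1.08 to 1.15 for Jun 1417409_at, -0.57 to 0.087 for Jun 1448694_at, -1.21 to 0.076 for Junb, -0.43 to 0.023 for Atf3, -0.30 to 0.040 for Ier2, -0.33 to 0.57 for Btg2 1416250_at and -0.19 to 0.51 for Btg2 1448272_at. Fos, Egr1 and Zfp36 kept their direction in every alternative in which they were tested. Under quantile normalization a value depends on its rank alone, and the intensities of the dim members (Fos, Junb and Atf3) lay close to the filter.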
